A study of Rattus norvegicus with 3 samples.

Results

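Meningeal fibroblasts that carry transcripts of the transporters Slc6a20 and Slc6a13 and of the retinaldehyde dehydrogenase Aldh1a2 were described in the injured rat spinal cord. Member nuclei had a UMI (unique molecular identifier, a counted RNA molecule) in at least 2 of Slc6a20, Slc6a13, Aldh1a2, Epha7 and Plcxd3, and in more of these than of Adamtsl3, Foxp2, Slc26a7, Slc47a1 and Zbtb7c, which mark a second fibroblast-type group. They were limited to at most 2 detected genes of the matrix set Col1a1, Col3a1, Col5a2, Col8a1, Postn, Tnn and Tnc, and to at most 1 of the neuronal genes Snhg11, Syt1, Snap25 and Celf4. This selection was made on measured counts, so the levels of these genes in the members are a description. There were 236 members among 5326 nuclei.

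The nuclei came from the lesion epicenter of wild-type Sprague Dawley rats aged 17 weeks, taken 49 days after spinal cord injury. The 3 groups were cord that had received a scaffold releasing hepatocyte growth factor (HGF), cord that had received a scaffold, and injured cord with no treatment, and both implants had been in place for 7 days. All 3 groups had therefore been injured, and no uninjured cord was compared. Each group was a single library, so no comparison has a replicate, no test between groups was possible, and every 95% interval covers counting error only. How many animals entered a library is not given in the sources used here. In the order HGF scaffold, scaffold and untreated, the libraries had 906, 2168 and 2252 nuclei, total counts of 1450757, 5791715 and 5953189 UMIs, and medians of 1047, 1639 and 1407.5 UMIs per nucleus. The HGF scaffold and scaffold libraries shared 1 barcode and the scaffold and untreated libraries shared 3, and none of these was a member.

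The spinal cord is wrapped in dura, arachnoid and pia, and the arachnoid and pia together form the leptomeninges. Their fibroblasts make the collagen and basement membrane of these layers, secrete prostaglandin D synthase and insulin-like growth factor 2 into the cerebrospinal fluid, and are a known source of retinoic acid and of bone morphogenetic proteins (BMPs) for the developing nervous system. After spinal cord injury, fibroblasts of the meninges and of blood vessels are known to contribute to the fibrotic scar.

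Members made up 2.10% of nuclei in the HGF scaffold library (19 nuclei, exact binomial interval 1.27 to 3.26), 4.84% in the scaffold library (105 nuclei, 3.98 to 5.83) and 4.97% in the untreated library (112 nuclei, 4.11 to 5.95). The share in the HGF scaffold library was 0.433 of that in the scaffold library (interval 0.251 to 0.710), and the share in the scaffold library was 0.974 of that in the untreated library (0.739 to 1.28). The first ratio stayed between 0.399 and 0.658 under every other rule tried. Its interval included 1 with at least 3 of the 5 genes required (0.658, interval 0.305 to 1.31). The same held with at most 1 marker of each of 7 other lineages (0.544, interval 0.161 to 1.47). The second depended on the rule. With every nucleus thinned to 500 UMIs before selection, the shares were 1.77%, 3.41% and 5.60%, and the scaffold share was 0.610 of the untreated share (0.451 to 0.819). Without the limits on matrix and neuronal genes, the shares were 4.42%, 10.2% and 13.6%, and that ratio was 0.751 (0.629 to 0.896). The matrix limit alone kept out 19 nuclei of the HGF scaffold library, 67 of the scaffold library and 146 of the untreated library, and these held 10823, 7758 and 19908 CPM of Trpm3 (CPM, the gene's summed UMIs scaled to a fixed total of UMIs of the same nuclei). As a share of all fibroblast-type nuclei, members were 6.96% in the HGF scaffold library, 13.9% in the scaffold library and 9.49% in the untreated library, so that the order of the scaffold and untreated libraries turned round. Median depth of members was 834, 1134 and 1096.5 UMIs.

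**Figure D1:**
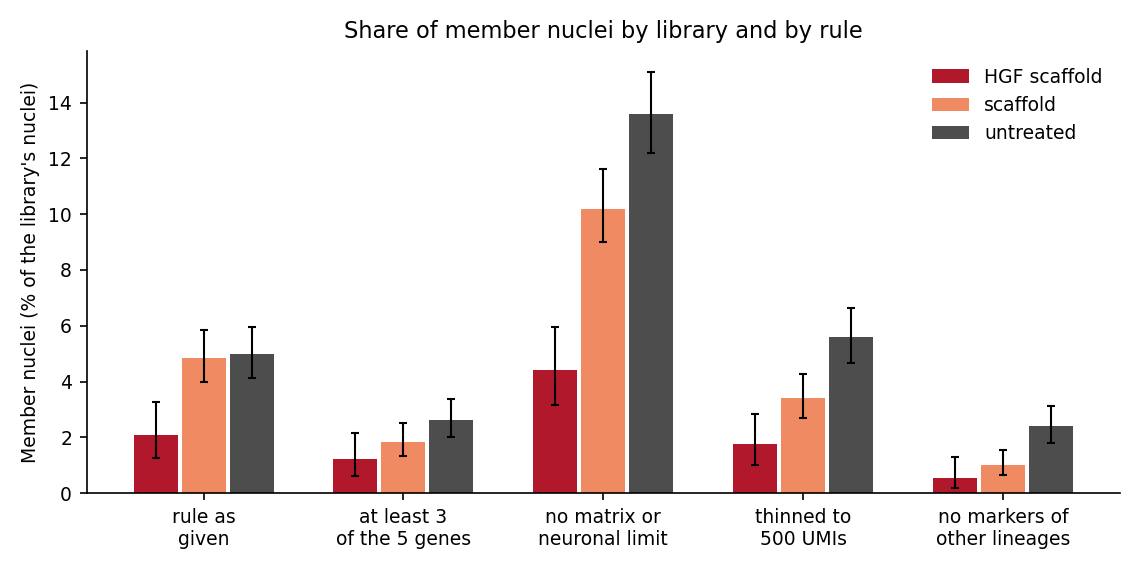
Member nuclei as a percentage of all nuclei of each library under the rule as given and under 4 other settings (bars, value in 1 library; lines, exact 95% binomial intervals, counting error only). The HGF scaffold bar is the lowest in every set, while the scaffold and untreated bars are level at 4.84% and 4.97% under the rule as given and stand apart at 3.41% and 5.60% after thinning to 500 UMIs.

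The members divided by how many of the 5 genes they showed. In the HGF scaffold library 8 members had exactly 2 of the genes, 10 had 3, none had 4 and 1 had 5. In the scaffold library 65 had exactly 2, 30 had 3, 10 had 4 and none had 5. In the untreated library 53 had exactly 2, 34 had 3, 23 had 4 and 2 had 5. Members with exactly 2 of the genes held 24247, 11937 and 22679 CPM of Trpm3 in the HGF scaffold, scaffold and untreated libraries. Nuclei just outside the rule, with 1 of the genes and none of the opposing genes, numbered 27, 117 and 109 and held 4154, 1631 and 2842 CPM of Trpm3. The most frequent pair was Slc6a20 with Slc6a13, detected together in 10, 48 and 57 members.

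Slc6a20, a transporter of proline and other imino acids, had a summed level of 1866 CPM in members of the HGF scaffold library (exact Poisson interval 1381 to 2467), 1262 CPM in the scaffold library (1109 to 1431) and 1416 CPM in the untreated library (1238 to 1611). Slc6a13, which takes up GABA and taurine, had 1371, 735 and 954 CPM in the same order of libraries. Aldh1a2, which makes retinoic acid from retinaldehyde, had 762, 667 and 1077 CPM. The Eph receptor gene Epha7 had 305, 300.0 and 560.1 CPM, and the phospholipase-related gene Plcxd3 had 1371, 414 and 1065 CPM. A UMI of Slc6a20 was found in 73.7% of members of the HGF scaffold library, 70.5% of the scaffold library and 76.8% of the untreated library, and a UMI of Epha7 in 21.1%, 27.6% and 29.5%. These 5 levels follow from the selection. In oligodendrocyte nuclei, which should lack these genes, a UMI of Slc6a20 was found in 0%, 14.7% and 12.4% of nuclei, at 0, 69.1 and 58.8 CPM and at median depths of 1384, 3446 and 3364 UMIs.

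Trpm3 and Bmp6 took no part in the rule. Trpm3, a cation channel gated by heat and neurosteroids, had 20872 CPM in members of the HGF scaffold library (interval 19161 to 22695), 11623 CPM in the scaffold library (11147 to 12114) and 27609 CPM in the untreated library (26807 to 28429). Bmp6, a BMP ligand, had 2628, 1531 and 3299 CPM. The scaffold library was the lowest of the 3 for both genes. With each nucleus thinned to 500 UMIs, Trpm3 was detected in 78.9%, 70.5% and 72.3% of members, against 14.1%, 28.6% and 28.5% of oligodendrocyte nuclei of the same libraries (unthinned, 84.2%, 86.7% and 87.5% of members). Bmp6 was detected in 63.2%, 43.8% and 51.8% of thinned members, against 4.23%, 8.06% and 5.47% of thinned oligodendrocyte nuclei.

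**Figure D2:**
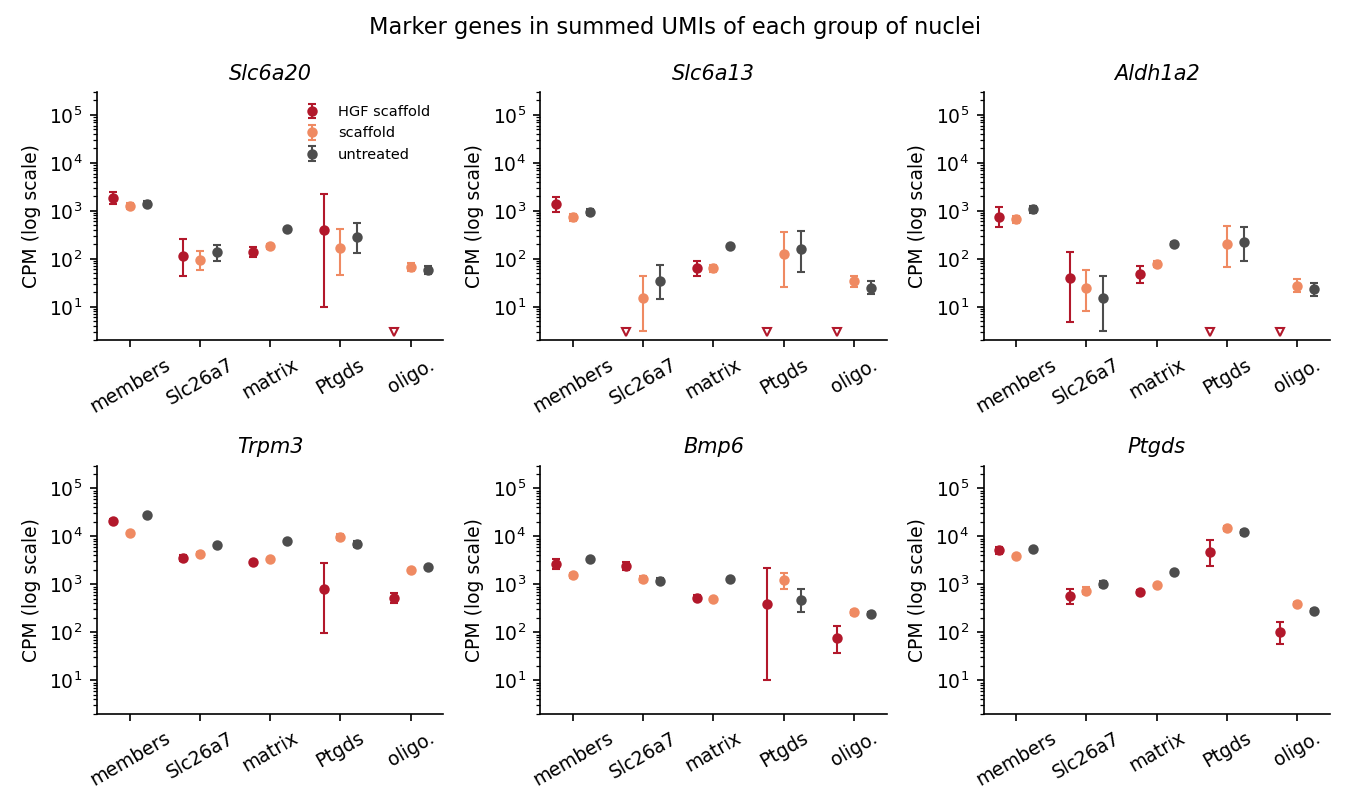
Summed level in CPM (log axis) of 6 genes in member nuclei and in 4 comparison groups named by the genes or the cell type that define them, for the HGF scaffold, scaffold and untreated libraries (points, 1 library each; lines, exact 95% Poisson intervals; open triangles near the axis, 0 UMIs). Trpm3 stands at 20872, 11623 and 27609 CPM in members and at 3582, 4346 and 6491 CPM in the Slc26a7 group, while Ptgds is highest in the Ptgds group of the scaffold library at 14710.2 CPM.

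Of 1980 genes outside the rule with at least 50 UMIs over all members, 54 (2.73%) were at least 2-fold higher in members than in the other nuclei of the same library in all 3 libraries. The members and the other nuclei were divided by genes of the same counts, so this profile is a description and no test. It was led by Slc13a4, a sulfate transporter, at 305, 109 and 142 CPM in members of the HGF scaffold, scaffold and untreated libraries, against 5.62, 14.6 and 19.9 CPM in other nuclei. Other transport genes among the 25 with the highest lowest-of-3 ratio included the dicarboxylate transporter Slc13a3 (190.4, 124 and 154 CPM in members) and the cystine transporter Slc7a11 (419, 538 and 455 CPM). Secreted factors in the profile were Igf2 (229, 347 and 560.1 CPM), its binding protein Igfbp2 (305, 683 and 751 CPM), the ligand Wnt4 (152, 103 and 228 CPM), the chemokine Cxcl12 (190.4, 197 and 203 CPM) and the heparin-binding factor Ptn (990.3, 559 and 929 CPM). Ptgds, which makes prostaglandin D2, had 5142, 3859 and 5459 CPM in members, against 450.0, 850.1 and 1212 CPM in other nuclei. Zic2, a zinc finger factor known in the developing meninges, had 381, 238 and 271 CPM in members, against 45.6, 40.5 and 82.9 CPM in other nuclei. The basement membrane gene Nid2 and the matrix gene Fbln1 completed this picture with 267, 145 and 172 CPM and with 343, 248 and 283 CPM.

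Lists of cell type markers were summed in the members. All 7 listed leptomeningeal fibroblast markers had UMIs in members of every library, with a summed level of 29175 CPM in the HGF scaffold library, 16532 CPM in the scaffold library and 35979 CPM in the untreated library, against 2285, 3292 and 6861 CPM in the other nuclei. Of these 7 markers 5 are the rule genes, whose presence and level follow from the selection, so the list is no check of the label. The others are Trpm3 and Bmp6. Trpm3 alone held 548 of the 766 UMIs of the list in the HGF scaffold members, 2247 of 3196 in the scaffold members and 4486 of 5846 in the untreated members. The sum, and the leptomeningeal share per nucleus given below, thus rest mostly on Trpm3. General fibroblast markers, 6 found, summed to 1524, 1355 and 1588 CPM in members, against 1224, 833 and 1651 CPM in other nuclei. They were thus not higher in members of the untreated library. At least 2 of them were found in 8 of 19, 46 of 105 and 55 of 112 members. Choroid plexus epithelium also expresses transporters of this kind. Its 8 markers summed to 76.2, 46.6 and 80.0 CPM in members, against 40.7, 101 and 152 CPM in other nuclei. Of these markers 1, 4 and 5 had UMIs in members, with 2, 9 and 13 UMIs in all. Ttr, Kl and Otx2 had no UMI in any member. The 3 ependymal markers summed to 0, 5.17 and 18.5 CPM, against 10.5, 12.5 and 9.33 CPM in other nuclei.

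Members were set beside 4 other groups. The Slc26a7 group had at least 2 of the opposing genes and more of them than of the 5 rule genes (35, 108 and 115 nuclei), the matrix fibroblast group at least 3 matrix genes (219, 541 and 953 nuclei), the Ptgds group all of Ptgds, Igf2 and Igfbp2 (3, 22 and 30 nuclei), and the oligodendrocyte group at least 3 of Mag, Mog, Mobp, St18 and Prr5l (71, 273 and 274 nuclei). Aldh1a2 had at most 39.1 CPM in the Slc26a7 group of any library and 47.4, 78.2 and 207 CPM in the matrix fibroblast group, all below its 762, 667 and 1077 CPM in members, a difference that the rule fixes. Bmp6 separated members less clearly from the Slc26a7 group, with 2628 against 2408 CPM in the HGF scaffold library, 1531 against 1290.4 CPM in the scaffold library and 3299 against 1192 CPM in the untreated library. Ptgds had 568, 735 and 1006 CPM in the Slc26a7 group. Igf2 was lower in members than in the Ptgds group, which was chosen on it, at 229 against 3151 CPM, 347 against 1459 CPM and 560.1 against 2334 CPM.

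Upstream sequence of genes that carry this profile is shown for the genes with which the results below begin and for the gene that leads the profile. The 250 bases before the RefSeq start (rat build GRCr8, a reference used here for sequence alone) are printed 5′ to 3′ for Trpm3, which has a pair of listed starts, for Bmp6, for Aldh1a2 and for Slc13a4. Capitals mark matches on either strand to CAGCAGG, a motif of Zic factors.
Trpm3 first start, chr1:229099491-229099740, plus strand: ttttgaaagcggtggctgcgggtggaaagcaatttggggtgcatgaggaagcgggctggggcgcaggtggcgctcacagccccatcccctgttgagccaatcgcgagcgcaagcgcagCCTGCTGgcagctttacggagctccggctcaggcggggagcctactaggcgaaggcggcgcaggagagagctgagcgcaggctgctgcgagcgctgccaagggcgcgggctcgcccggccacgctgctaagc
Trpm3 second start, chr1:229435260-229435509, plus strand: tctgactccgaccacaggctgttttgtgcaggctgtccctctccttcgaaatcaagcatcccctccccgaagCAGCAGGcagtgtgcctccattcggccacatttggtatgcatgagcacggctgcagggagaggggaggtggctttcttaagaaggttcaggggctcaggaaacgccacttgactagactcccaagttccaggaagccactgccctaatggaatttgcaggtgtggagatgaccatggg
Bmp6, chr17:26675262-26675511, minus strand: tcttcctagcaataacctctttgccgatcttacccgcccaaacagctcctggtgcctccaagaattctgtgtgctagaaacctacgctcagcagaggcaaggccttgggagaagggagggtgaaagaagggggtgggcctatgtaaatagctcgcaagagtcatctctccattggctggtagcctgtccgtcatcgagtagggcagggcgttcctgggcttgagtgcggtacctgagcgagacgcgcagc
Aldh1a2, chr8:80758391-80758640, plus strand: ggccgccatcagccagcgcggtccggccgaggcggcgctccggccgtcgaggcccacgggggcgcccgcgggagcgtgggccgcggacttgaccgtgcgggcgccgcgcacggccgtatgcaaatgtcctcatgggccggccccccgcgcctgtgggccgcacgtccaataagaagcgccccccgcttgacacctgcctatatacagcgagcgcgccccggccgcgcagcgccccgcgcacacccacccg
Slc13a4, chr4:64955987-64956236, minus strand: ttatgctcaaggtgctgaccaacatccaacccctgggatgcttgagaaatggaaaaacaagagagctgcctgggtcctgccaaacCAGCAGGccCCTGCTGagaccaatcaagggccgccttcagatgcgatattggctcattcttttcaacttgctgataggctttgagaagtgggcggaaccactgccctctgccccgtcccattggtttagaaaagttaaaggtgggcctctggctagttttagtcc
The motifs AGGTCA (a half-site of nuclear receptors), TGTTTAC (forkhead factors) and CAGCAGG (Zic factors) were searched on both strands. In the printed sequences the only matches were to CAGCAGG, 1 upstream of each Trpm3 start and 2 upstream of Slc13a4, and they did not overlap. CAGCAGG was present in 7.67% of 33469 listed rat promoters, AGGTCA in 14.1% and TGTTTAC in 3.21%. Of 30 genes (the 5 rule genes and the 25 profile genes), 21 had a listed promoter, of which 3 held CAGCAGG (Slc13a4, Ptgds and Trpm3), 1 held AGGTCA (Ptgds) and 0 held TGTTTAC. A match is a run of letters and shows no binding.

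RNA of other cell types was present in the members. Myeloid markers summed to 3733 CPM in members of the HGF scaffold library, 3559 CPM in the scaffold library and 868 CPM in the untreated library, close to their 4581, 3945 and 991 CPM in all other nuclei of these libraries. All 8 myeloid markers had UMIs in members of every library, and 12 of 19, 55 of 105 and 16 of 112 members had at least 2 of them. Oligodendrocyte markers summed to 1562, 2850.1 and 2769 CPM, against 2413, 2951 and 3971 CPM in other nuclei, with Mag and Myrf at 0 in the HGF scaffold members. Endothelial markers summed to 267, 564 and 905 CPM, Schwann cell markers to 343, 284 and 929 CPM and neuronal markers to 38.1, 409 and 443 CPM. Astrocyte markers, some of which meningeal fibroblasts also express, summed to 1981, 1314 and 2142 CPM. Some members had more UMIs of myeloid or oligodendrocyte markers than of leptomeningeal markers. In the deepest scaffold member 27 UMIs were leptomeningeal, 90 myeloid and 67 oligodendrocyte, and in an untreated member 2, 1 and 21. The summed levels include such nuclei, and the name meningeal fibroblast may not hold for every member. Leptomeningeal markers made up a median of 2.70% of a member's UMIs in the HGF scaffold library (range 0.511 to 10.3%), 1.34% in the scaffold library (0.0518 to 9.25%) and 2.32% in the untreated library (0.0648 to 16.2%). Members with at most 1 marker of each of 7 other lineages numbered 5, 22 and 54, or 0.552%, 1.01% and 2.40% of the libraries, and this restriction was chosen after seeing the data. They are called restricted members, or members without markers of other lineages, although single markers were allowed. Astrocyte and oligodendrocyte precursor markers were not screened. Their totals were 4512, 19620 and 52660 UMIs, and nuclei with few UMIs pass such a limit more easily. The part of RNA of other cell types in the differences below was not tested, and values in the restricted members are given for some genes.

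**Figure D3:**
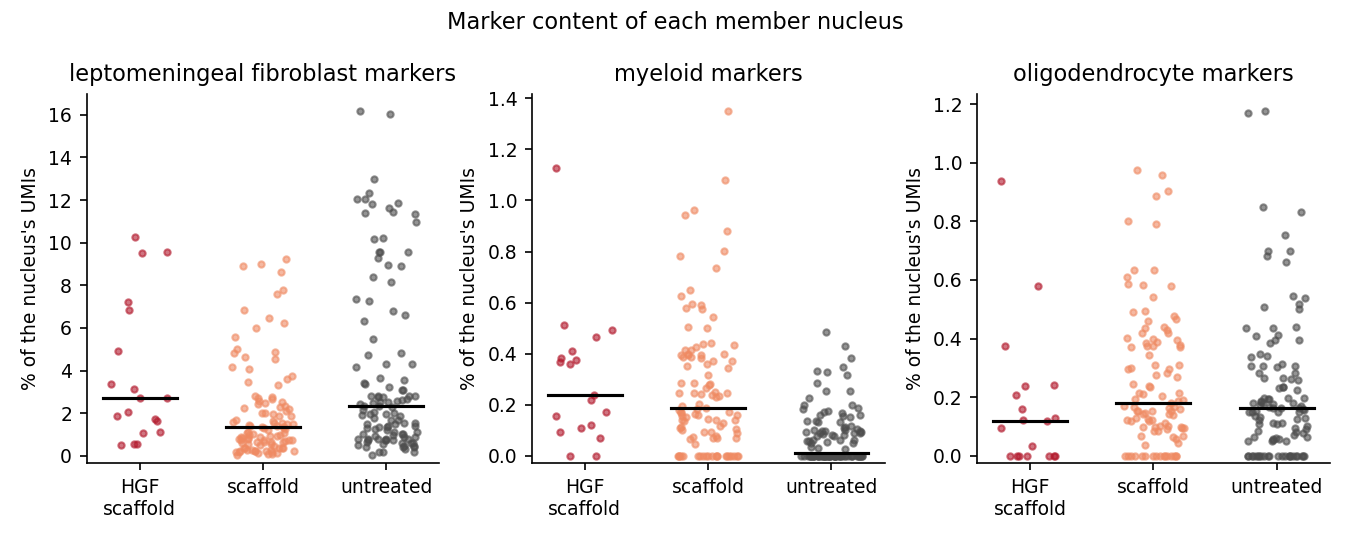
Share of each member nucleus's UMIs (percent) that came from leptomeningeal fibroblast, myeloid and oligodendrocyte markers, for members of the HGF scaffold, scaffold and untreated libraries (points, 1 nucleus each; black lines, medians). The median myeloid share is 0.237% and 0.188% in the HGF scaffold and scaffold libraries and 0.0128% in the untreated library, while the leptomeningeal share spreads up to 16.2% in the untreated library.

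The first comparison asked how the members differed between cord with a scaffold and untreated cord. Summed CPM were compared as ratios, centred on the median ratio of all genes with at least 20 UMIs in the pair, and a gene is called higher or lower at a centred ratio past 2-fold, with no test. Of 4146 genes, 377 (9.09%) were higher and 254 (6.13%) were lower in the scaffold library. Genes of the leptomeningeal identity were among the lower ones. Trpm3 was at 0.407 of the untreated level (interval 0.387 to 0.429), with 11623 CPM in the scaffold library against 27609 CPM in the untreated library, and Bmp6 at 0.449 (0.388 to 0.519), with 1531 against 3299 CPM. Over 20 measured leptomeningeal and arachnoid genes outside the rule, 0 were higher and 6 lower (a share above the 6.13% of all genes), and the median log2 ratio was -0.78, where the median of all genes is 0 by construction. The 6 were Trpm3, Bmp6, Zic1, Nnat, Bnc2 at 0.461 and Fbxl7 at 0.418. Nnat, an imprinted membrane protein gene, was at 0.317 (0.187 to 0.521), with 119 against 363 CPM, and the zinc finger gene Zic1 at 0.356 (0.124 to 0.914). Ptgds was at 0.684 (0.620 to 0.755) and Igfbp2 at 0.880 (0.683 to 1.13), neither past 2-fold.

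Outside the members the ratio of these genes depended on the group. In all other nuclei Trpm3 was at 0.471 of the untreated level (0.462 to 0.480), with 2599.9 CPM in the scaffold library against 5339 CPM in the untreated library, and Bmp6 at 0.450 (0.426 to 0.474). In the matrix fibroblast group Trpm3 was at 0.431 (0.419 to 0.443) and Bmp6 at 0.390 (0.362 to 0.419). This group includes the nuclei that only the matrix limit kept out of the members, so it is no separate comparison. They numbered 67 in the scaffold library and 146 in the untreated library, with 7758 and 19908 CPM of Trpm3. The group held 541 of 2168 nuclei in the scaffold library and 953 of 2252 in the untreated library. All other nuclei thus also differed in make-up, and the part of this in the ratios was not tested. In the Slc26a7 group Trpm3 was at 0.650 (0.596 to 0.709) and Bmp6 at 1.05 (0.878 to 1.26). In the Ptgds group both were higher in the scaffold library, Trpm3 at 1.45 (1.20 to 1.75) and Bmp6 at 2.61 (1.35 to 5.24, 29 UMIs against 15). In the oligodendrocyte group Trpm3 was at 0.778 (0.742 to 0.816) and Bmp6 at 0.964 (0.839 to 1.11). In the restricted members Trpm3 had 23547 CPM in the scaffold library against 40220.3 CPM in the untreated library, a ratio of 0.618 (0.558 to 0.684). Bmp6 was at 0.576 (0.415 to 0.786), so that neither was past 2-fold there. Of the rule genes, Plcxd3 was at 0.376 in all members (0.285 to 0.493) but at 0.897 in the restricted members (0.548 to 1.42), and Slc6a20 was at 0.863 (0.718 to 1.04).

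**Figure D4:**
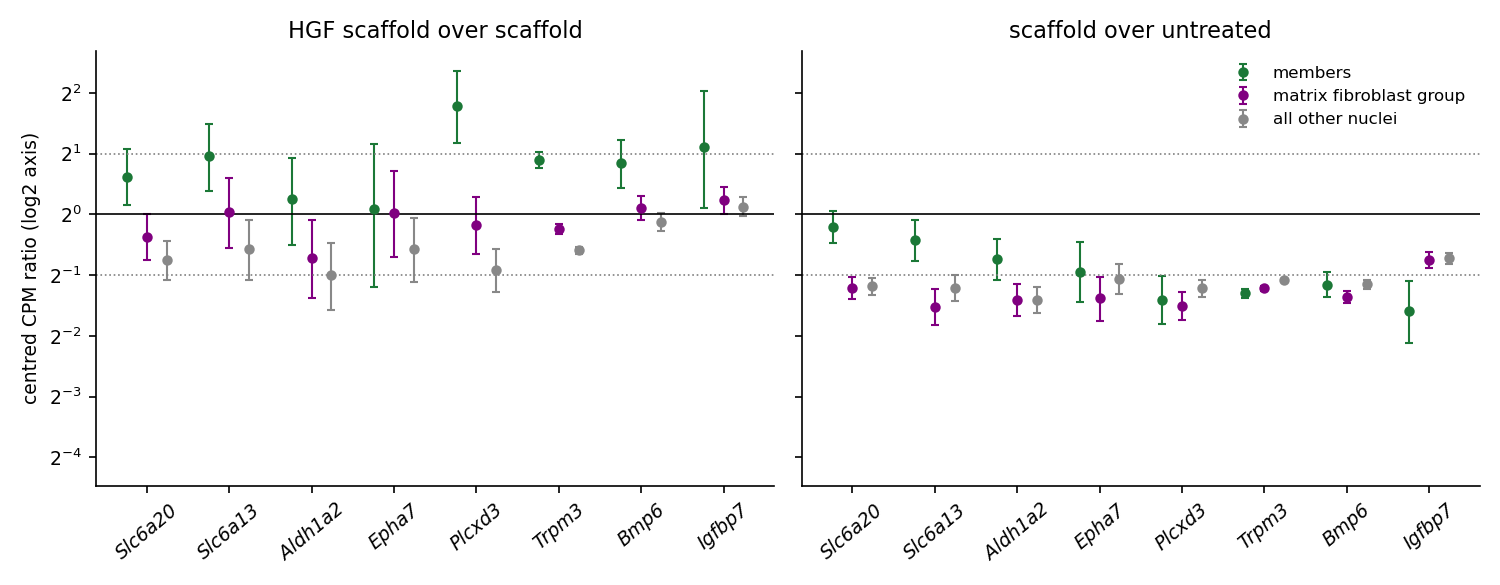
Centred ratio of CPM (log2 axis, 1 means no difference from the median gene) of the 5 rule genes, Trpm3, Bmp6 and Igfbp7, for HGF scaffold over scaffold and for scaffold over untreated, in members, in the matrix fibroblast group and in all other nuclei (points; lines, exact 95% intervals, counting error only; dotted lines, 2-fold). Trpm3 lies at 0.407, 0.431 and 0.471 in the 3 sets for scaffold over untreated, and at 1.87, 0.851 and 0.663 for HGF scaffold over scaffold.

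The 12 genes with the lowest upper bounds included, besides Trpm3 and Igfbp7, the growth factor receptor gene Egfr at 0.238 (0.135 to 0.401), with 98.3 CPM in the scaffold members against 400.0 CPM in the untreated members. The adhesion gene Negr1 was at 0.305 (0.223 to 0.413), with 310.4 against 985 CPM, and the fibril-associated collagen gene Col14a1 at 0.191 (0.0765 to 0.421), with 41.4 against 209 CPM. In all other nuclei the difference had the same sign, with 199 against 361 CPM of Egfr, 421 against 794 CPM of Negr1 and 45.5 against 108 CPM of Col14a1. In the restricted members Egfr stood at a log2 ratio of -1.16, against -2.07 in all members, and Negr1 at -3.45, against -1.71.

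Arachnoid barrier genes, which seal the outer leptomeningeal layer, had a median log2 ratio of -1.33 over 6 measured genes, with 0 higher and 4 lower. Over all genes 9.09% were higher and 6.13% lower. The tight junction gene Cldn11 was at 0.415 (0.290 to 0.587), with 264 against 615 CPM, although at a log2 ratio of -0.53 in the restricted members. The cadherin gene Cdh1 was at 0.228 (0.0832 to 0.542), with 7 UMIs against 25, and the organic anion transporter gene Slc22a8 at 0.335 (0.117 to 0.850), with 7 UMIs against 17. The peptidase gene Dpp4, the last of the 4, was at 0.383. The junction scaffold gene Tjp1 was at 0.756 (0.510 to 1.12). Cldn11 is also a myelin gene, and oligodendrocyte markers summed to 2850.1 CPM in the scaffold members against 2769 CPM in the untreated members.

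Among BMP pathway genes 0 of 10 measured genes were higher and 4 lower, with a median log2 ratio of -0.53, where 9.09% of all genes were higher and 6.13% lower. The lower ones were Bmp6, the ligand genes Bmp5 at 0.239 (0.0690 to 0.675, 5 UMIs against 17) and Bmp7 at 0.428 (0.178 to 0.967), and the receptor gene Bmpr1a at 0.349 (0.110 to 0.965, 6 UMIs against 14). The receptor gene Bmpr2 was at 0.776 (0.539 to 1.12). Of 14 measured Wnt pathway genes 0 were higher and 7 lower, against the same shares of all genes, with a median of -1.01. These were the ligand genes Wnt4 at 0.440 and Wnt5a at 0.271 (0.0973 to 0.662), the receptor genes Fzd3 at 0.257 (0.0839 to 0.669) and Fzd6 at 0.325, the R-spondin receptor gene Lgr4 at 0.492, and the transcription factor genes Tcf7l2 at 0.271 (0.0881 to 0.713) and Tcf7l1 at 0.496 (0.357 to 0.683). Most of these rest on few UMIs, such as 7 of Wnt5a in the scaffold members against 21 in the untreated members. In the restricted members Tcf7l1 stood at a log2 ratio of -0.19.

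Aldh1a2 was at 0.599 (0.474 to 0.757), with 667 CPM in the scaffold library against 1077 CPM in the untreated library. Of 9 other retinoid pathway genes measured 0 were higher and 0 lower, with a median log2 ratio of 0.08. The retinoic acid-binding gene Crabp2 was at 1.54 (0.648 to 3.91), and the retinaldehyde reductase gene Dhrs3 had 82.8 against 160.0 CPM (interval of the ratio 0.251 to 0.969), just inside 2-fold. The other retinaldehyde dehydrogenases, Aldh1a1 and Aldh1a3, had at most 2 UMIs in any library's members. Among insulin-like growth factor genes 1 of 12 was higher and 2 lower, counts too small to set apart from the 9.09% and 6.13% of all genes. Igfbp7, a secreted binding protein, was at 0.331 (0.230 to 0.470) with 238 against 695 CPM, and at 0.441 (0.168 to 0.985) in the restricted members, while it was at 0.607 (0.569 to 0.647) in all other nuclei and at 0.0900 (0.0104 to 0.355) in the Ptgds group, on 2 UMIs against 30. The insulin receptor substrate gene Irs1 was at 0.279 (0.132 to 0.550) but at a log2 ratio of -0.18 in the restricted members, against -1.84 in all members, and Igf2r was at 2.98 (1.17 to 8.99) with 22 UMIs against 6.

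Of 25 adhesion and junction genes 0 were higher and 4 lower (Cldn11, Pcdh19, Jam2 and Jam3), with a median of -0.40. Over all genes 9.09% were higher and 6.13% lower. Of 24 axon guidance genes 1 was higher and 6 lower, among them the Slit receptor gene Robo1 at 0.436 (0.364 to 0.522), with 988 against 2191 CPM, and the ephrin receptor gene Epha4 at 0.320 (0.155 to 0.625). Robo1 was at 0.717 (0.494 to 1.02) in the restricted members. The semaphorin receptor gene Nrp2 was at 2.48 (1.51 to 4.21), with 31.3% of its scaffold UMIs in 1 nucleus. The laminin gene Lamc1 was at 0.451 (0.357 to 0.569), with 600.0 against 1286 CPM, and at 0.555 (0.320 to 0.914) in the restricted members, no longer past 2-fold. Of 15 scar and myofibroblast matrix genes outside the rule 2 were higher and 2 lower, with a median of -0.20. These counts are too small to set apart from the shares of all genes. Fap was at 2.44 (1.16 to 5.59) and Runx1 at 2.24 (1.24 to 4.25), while Lum was at 0.495 and Ctgf at 0.447. The collagen genes Col1a1 and Col3a1, which the rule limits, were at 0.926 (0.721 to 1.19) and 0.650 (0.519 to 0.811).

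Several of the genes that stood highest in the scaffold members are known from myeloid cells. The 12 with the highest lower bounds included the scavenger receptor gene Msr1, with 316 CPM in the scaffold members against 6.15 CPM in the untreated members, the lipase gene Aoah with 791 against 55.4 CPM (13.8-fold, 7.09 to 30.8), the lysozyme gene Lyz2 with 429 against 55.4 CPM (interval of the ratio 3.77 to 17.0), the transferrin receptor gene Tfrc with 471 against 55.4 CPM (8.22-fold, 4.15 to 18.6) and the phosphodiesterase gene Pde4d with 4189.8 against 683 CPM (5.93-fold, 4.86 to 7.30). These levels followed those of the other nuclei of each library, where Msr1 had 303 against 23.3 CPM, Lyz2 433 against 78.4 CPM and Pde4d 5123 against 1537 CPM. Pde4d remained 4.62-fold higher (2.53 to 8.66) in the restricted members, with 31 UMIs against 19.

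Of 12 inflammatory fibroblast genes 5 were higher and 0 lower, a larger share than the 9.09% of all genes, with a median log2 ratio of 0.57. They were the NF-kappa-B inhibitor gene Nfkbia at 7.32-fold (3.35 to 18.9), with 326 against 43.1 CPM, the mitochondrial superoxide dismutase gene Sod2 at 5.37-fold (2.08 to 17.6), the adhesion gene Icam1 at 5.42-fold (1.61 to 28.5) the complement gene C3 at 2.71-fold (1.05 to 8.25) and the transcription factor gene Cebpb at 3.99-fold. Myeloid markers summed to 3559 CPM in these members against 868 CPM in the untreated members. In all other nuclei Nfkbia had 396 against 54.9 CPM and Sod2 241 against 28.3 CPM. Of 10 immediate early and heat shock genes 4 were higher and 0 lower, with a median of 0.85, where 9.09% of all genes were higher and 6.13% lower. Among them were Junb at 8.34-fold (3.02 to 32.0) and Dusp1 at 3.25-fold (1.30 to 9.73). Of 18 hypoxia and glycolysis genes 8 were higher and 3 lower, against the same 9.09% and 6.13% of all genes, with a median of 0.80. The glycolytic regulator gene Pfkfb3 was 5.79-fold higher (2.75 to 14.1), Vegfa 3.25-fold (1.05 to 13.4), Hk2 3.05-fold (1.37 to 7.70), the glucose transporter gene Slc2a1 2.74-fold (1.37 to 5.95) and the oxygen-regulated transcription factor gene Hif1a 2.08-fold (1.39 to 3.19), while Ndrg1 was at 0.446 (0.232 to 0.831), Epas1 at 0.457 and Mxi1 at 0.407. Hif1a was 2.60-fold higher (1.04 to 6.43) in the restricted members. In all other nuclei Pfkfb3 was 4.09-fold higher (3.62 to 4.63), Hif1a 2.16-fold (2.02 to 2.31) and Junb 4.69-fold (4.01 to 5.49).

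Of 23 solute transporter genes 3 were higher and 3 lower, counts too small to set apart from the 9.09% and 6.13% of all genes. The zinc transporter gene Slc39a14 was 3.50-fold higher (1.73 to 7.80), with 222 against 61.5 CPM, and the arginine transporter gene Slc7a2 3.10-fold higher (1.99 to 4.97), with 512 against 160.0 CPM. In all other nuclei Slc7a2 had 525 against 114 CPM and Slc39a14 had 310.3 against 138 CPM. In the restricted members Slc7a2 was at 2.12 (0.791 to 5.49). The sodium-calcium exchanger gene Slc24a3 was at 0.360 (0.264 to 0.485), with 336 against 905 CPM, and at a log2 ratio of -0.91 in the restricted members, no longer past 2-fold. Of 3 measured prostaglandin genes 2 were higher, the phospholipase gene Pla2g4a just past 2-fold and the thromboxane synthase gene Tbxas1 at 5.69-fold (3.17 to 11.1), a gene also expressed by macrophages, which had 614 against 171 CPM in other nuclei.

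**Figure D5:**
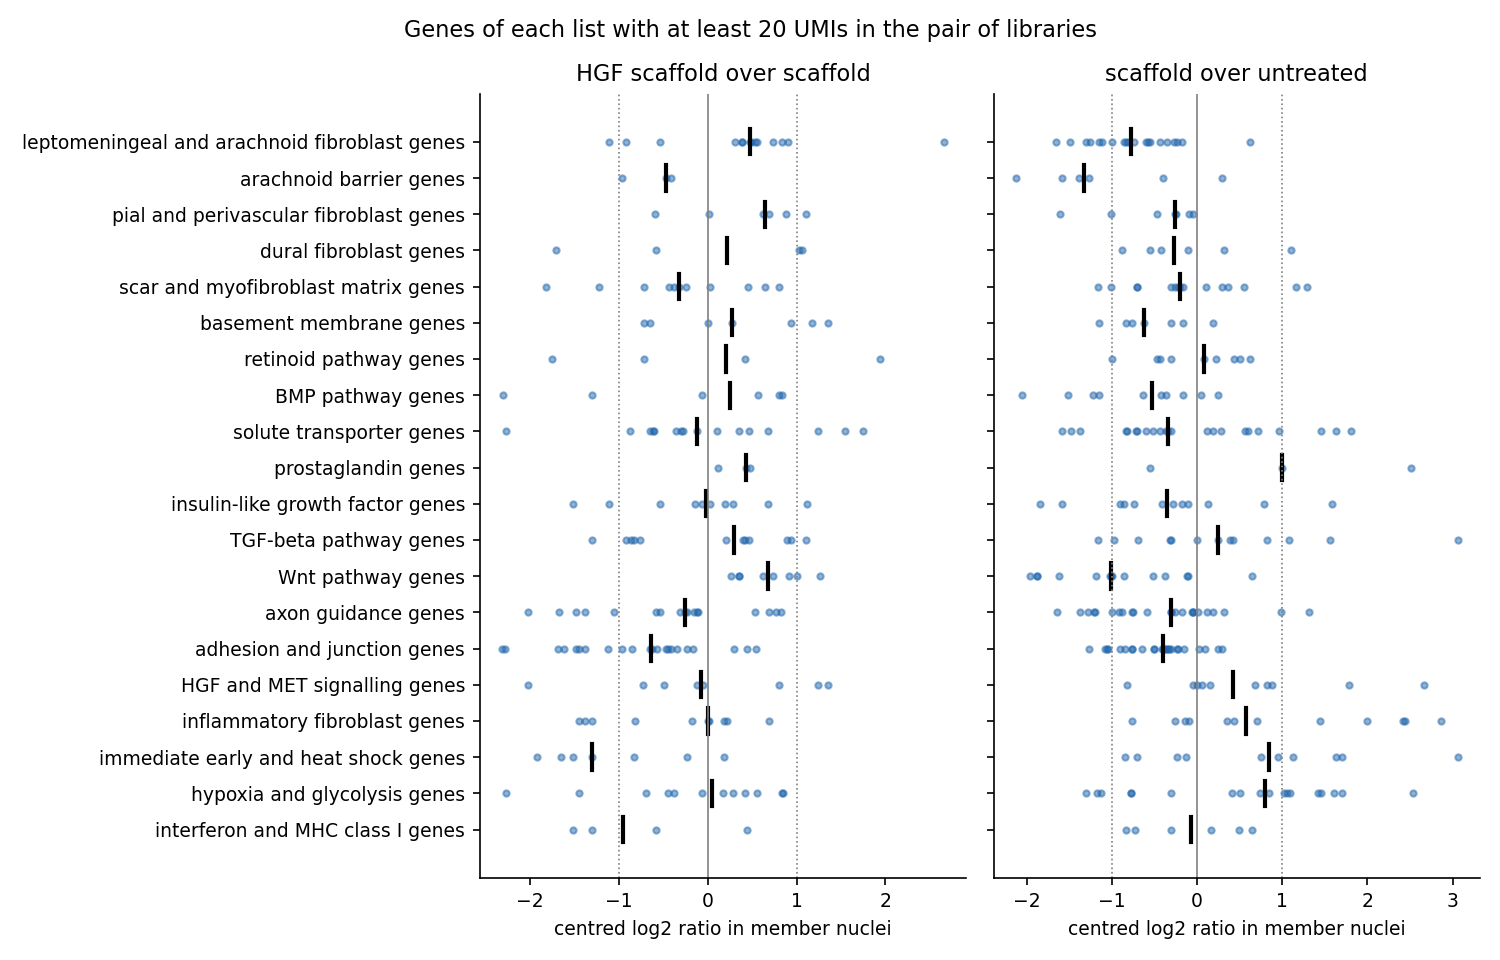
Centred log2 CPM ratios in member nuclei for the genes of 20 lists, for HGF scaffold over scaffold and for scaffold over untreated (blue points, 1 gene each with at least 20 UMIs in the pair; black bars, list medians; dotted lines, 2-fold; genes at 0 UMIs with no direction are not drawn). For scaffold over untreated the medians of the leptomeningeal, arachnoid barrier and Wnt lists lie at -0.78, -1.33 and -1.01 and that of the immediate early list at 0.85.

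The second comparison asked how members of the cord with the HGF-releasing scaffold differed from those of the cord with a scaffold alone. It rests on 19 nuclei and 26255 UMIs against 105 nuclei and 193327 UMIs. Of 2913 genes, 239 (8.20%) were higher and 456 (15.7%) were lower in the HGF scaffold library. With at least 20 UMIs required over the pair, most genes had few in the HGF scaffold members, and 99 of the genes had none. This comparison shares the scaffold library with the first one, so opposite directions in the pair of comparisons are not independent.

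Trpm3 was at 1.87 of the scaffold level (1.70 to 2.05), with 20872 against 11623 CPM, and Bmp6 at 1.79 (1.35 to 2.33), with 2628 against 1531 CPM. A single nucleus held 22.4% of the Trpm3 UMIs of the HGF scaffold members. Unlike in the members, Trpm3 was at 0.663 (0.635 to 0.692) in all other nuclei. These intervals leave out the spread between nuclei and between animals, and the difference between the ratios was not tested. The rule genes Slc6a13 and Plcxd3 were at 1.94 (1.31 to 2.82) and 3.45 (2.26 to 5.17), and Aldh1a2 was at 1.19 (0.703 to 1.91). In the restricted members, 5 against 22 nuclei, Trpm3 was at 2.25 (1.92 to 2.64) and Ptgds at 2.16 (1.55 to 2.98), against 1.39 (1.15 to 1.67) for Ptgds in all members. Of 14 leptomeningeal and arachnoid genes 1 was higher, Nnat at 6.33 (3.26 to 12.2) with 19 UMIs against 23, and 1 was lower, Igfbp2 at 0.465 (0.197 to 0.943), and the median log2 ratio was 0.48. These counts are no larger a share than the 8.20% higher and 15.7% lower of all genes. The lists of Wnt pathway genes and of pial and perivascular genes had medians of 0.68 and 0.65 over 8 and 6 genes. In the Slc26a7 group Nnat was at 3.97 (2.28 to 6.91) and Bmp6 at 1.96 (1.57 to 2.44), so these rises were not particular to the members. Trpm3 was at 0.866 (0.734 to 1.02) in that group.

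The 12 genes with the highest lower bounds included the nucleotidase gene Entpd1 at 7.67-fold (3.49 to 16.8), the LIM domain gene Fhl2 at 7.16-fold (3.20 to 15.9), the glutamate transporter gene Slc1a3 at 3.37-fold (2.10 to 5.29), with 1105 against 341 CPM, and Thsd7a at 4.10-fold (2.70 to 6.12). In each of these 1 nucleus held much of the total, 46.7% for Entpd1, 57.1% for Fhl2, 34.5% for Slc1a3 and 41.0% for Thsd7a. The laminin gene Lamc1 was 2.25-fold higher (1.49 to 3.32), with 1295 against 600.0 CPM, but at 1.57 (0.556 to 3.89) in the restricted members. The retinoic acid receptor gene Rarb was 3.83-fold higher (1.42 to 9.49), with 8 UMIs against 16, and Slc24a3 2.36-fold (1.35 to 3.94). Slc24a3 and Lamc1 were also higher in the Slc26a7 group, at 2.09 (1.48 to 2.92) and 1.63 (1.12 to 2.33).

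The 12 genes with the lowest upper bounds included Kirrel3, with 0 UMIs in the HGF scaffold members against 129 in the scaffold members, the myelin-associated gene Bcas1 at 0.118 (0.0241 to 0.350), the glutamate receptor gene Grm3 at 0.0639 (0.00160 to 0.363), Adarb2 at 0.127 (0.0260 to 0.377), the neuregulin receptor gene Erbb4 at 0.110 (0.0132 to 0.406) and Opcml at 0.0744 (0.00187 to 0.424). Against the floor of 3 counts set for the HGF scaffold members, Kirrel3 was at least 5.61-fold lower. In the scaffold members 1 nucleus held 24.8% of the UMIs of Kirrel3, 30.8% of Bcas1, 30.8% of Grm3, 13.3% of Adarb2, 14.4% of Erbb4 and 27.2% of Opcml. In all other nuclei Kirrel3 (423 against 627 CPM), Grm3 (273 against 505 CPM), Adarb2, Erbb4 and Opcml were also lower. Bcas1 was not, at 784 against 761 CPM. Neuronal markers summed to 38.1 CPM in the HGF scaffold members against 409 CPM in the scaffold members, and oligodendrocyte markers to 1562 against 2850.1 CPM. Of 7 immediate early and heat shock genes 0 were higher and 4 lower, with a median of -1.31, where 8.20% of all genes were higher and 15.7% lower. The 4 were Jund, Klf6, Dusp1 and Hspa8, each with 1 UMI in the HGF scaffold members. The interval of each included 1, with upper bounds of 2.54, 1.59, 1.96 and 2.16. Such counts are too small to set apart from the shares of all genes.

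HGF acts through the receptor tyrosine kinase MET and adaptors such as Gab1, Gab2 and Grb2. Met had 0 UMIs in members of the HGF scaffold library, 17 in the scaffold library and 4 in the untreated library, and in other nuclei of these libraries it had 96.2, 117 and 22.3 CPM. A count of 0 among 26255 UMIs allows up to 114 CPM, above the 87.9 CPM of the scaffold members, so no direction can be given. Hgf itself had 2, 9 and 3 UMIs in members. Of 8 measured genes of the HGF and MET list 2 were higher and 1 lower in the HGF scaffold members, with a median log2 ratio of -0.08. Such counts are too small to set apart from the 8.20% higher and 15.7% lower of all genes. The higher ones were Sos1 at 2.56, with 9 UMIs against 27, and the adaptor gene Shc1 at 2.36, with 8 against 26. Gab2 was at 1.75 (1.29 to 2.33), with 2247 against 1339.7 CPM, and the hyaluronan receptor gene Cd44 at 0.247 (0.0293 to 0.932), with 2 UMIs against 62. In the first comparison Cd44 was 6.30-fold higher (3.01 to 15.2), with 62 UMIs in the scaffold members against 8 in the untreated members, and it had 370.5 against 112 CPM in other nuclei.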

How the data were processed

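Single-nucleus RNA was measured in 3 libraries, 1 per group, grouped by the treatment label. Nuclei were captured in droplets, per the labels' protocols. The deposited matrices hold whole-number UMI counts per gene and nucleus, not normalized, which the authors obtained from Cell Ranger (version 6.0.1, as the submitters' processing notes give it). Genome build and annotation are not given in the sources used here. The lowest nucleus of each library had about 500 UMIs, so shallower barcodes are not in the matrices. The members, gene lists and named genes were chosen with earlier results of these data known.

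UMIs of member nuclei were summed per library and scaled to CPM in Python 3.11.15 (numpy, scipy, pandas, scanpy). Ratios were centred on the median of genes with at least 20 UMIs in the pair (log2 0.048 for scaffold over untreated and -0.058 for HGF scaffold over scaffold). A count of 0 was set at a floor of 3 counts per library. Intervals are exact at 95% (Clopper-Pearson for shares, conditional for ratios, Poisson for CPM) and cover counting error only. The calculation was checked on simulated sums with independent Poisson counts per gene. That setting holds no spread between nuclei, so the check does not cover it. No nucleus was filtered out. Scrublet marked 1, 1 and 0 nuclei of the HGF scaffold, scaffold and untreated libraries, too few to have worked, so doublets were not removed.

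Named genes were the rule genes with Trpm3 and Bmp6, the 25 leading profile genes, the 12 at each end of each comparison by interval bound, and per list up to 3 with the largest ratio in each comparison and 2 with the most UMIs. Fzd6, Lgr4, Aldh1a1, Aldh1a3, Hgf, Cebpb, Epas1, Mxi1, Jam3, Bnc2 and Fbxl7 were named after their values were seen. Of 555 entries in 21 gene lists, 512 were found in the files. Promoter sequences came from a RefSeq table of build GRCr8. Alternatives were other membership rules, thinning, UMI minimums, centring and weighting.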

Additional observations from a re-analysis of the deposited data

How the results depend on the processing

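The share of members in the HGF scaffold library was lower than in the scaffold library under every rule tried, at ratios of 0.399 to 0.658. The shares were 1.21%, 1.85% and 2.62% (HGF scaffold, scaffold, untreated) with at least 3 of the 5 genes, 0.552%, 1.01% and 2.40% without markers of other lineages, 4.42%, 10.2% and 13.6% without matrix and neuronal limits, and 6.96%, 13.9% and 9.49% of fibroblast-type nuclei. After thinning to 1000 UMIs the scaffold and untreated shares were 3.96% and 6.0%, and after thinning to 500 UMIs the scaffold share was 3.41%. The scaffold over untreated ratio of 0.974 became 0.704 with at least 3 genes, 0.423 without markers of other lineages, 0.659 and 0.610 after thinning to 1000 and 500 UMIs, and 1.47 among fibroblast-type nuclei.

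For scaffold over untreated, 243 genes were higher with at least 3 genes required. Without markers of other lineages 68 were higher and 85 lower, with at least 50 UMIs 127 and 94, with no minimum 1377 and 1294, and with members thinned to 1000 UMIs 152 and 136. For HGF scaffold over scaffold, 231 were lower with at least 3 genes, 15 were higher and 20 lower without markers of other lineages, 55 and 140 with at least 50 UMIs, 105 and 146 after thinning, and with no minimum 1837 were higher and 555 lower, the opposite balance to the 239 higher and 456 lower at 20 UMIs. Stricter settings leave fewer genes measured. Igfbp2 turned to a log2 ratio of 0.03 for HGF scaffold over scaffold with at least 3 genes, and the cause was not tested. The immediate early list turned to 1.13 with no minimum, where genes at 0 sit at the floor. With genes at 0 ranked last, added after seeing the data, the retinoid and inflammatory medians for HGF scaffold over scaffold were -0.68 and -0.77, against 0.20 and 0.00. Trpm3 stayed lower in scaffold than in untreated members in every setting (log2 -1.54 to -0.69), past 2-fold in all but the members without markers of other lineages. The 19 HGF scaffold members limit the second comparison. No paired analysis was possible because each group has 1 library.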
